A study of Mus musculus with 4 samples.

Results

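Binding of SCL, the basic helix-loop-helix factor encoded by Tal1, was examined at 36 genes of Wnt signalling outside the cell: 19 Wnt ligands, 10 Frizzled receptors, the co-receptors Lrp5 and Lrp6, the single-pass receptors Ror1, Ror2 and Ryk, and the secreted inhibitors Dkk1 and Sfrp1. A peak was given to a gene when its summit lay nearest to one of the starts of that gene among the starts of all protein-coding genes in the GENCODE vM1 annotation of the mm9 mouse genome. By this rule 33 of the 12885 peaks in the deposited list belonged to the 36 genes. The list came from chromatin immunoprecipitation and sequencing (ChIP-seq) of FLK1+ mesoderm, sorted at day 3.5 from embryoid bodies, the aggregates in which mouse embryonic stem cells differentiate. The cells were wild type, of the C57Bl/6 X Sv129 background, from the J1 line, and differentiated on 2 occasions. There were 2 libraries precipitated with an in-house rabbit antiserum against SCL and 2 input libraries made with no antibody. All cells were wild type for SCL, so no library measured the signal of the antiserum without its target. The authors pooled the libraries of each kind before peaks were called, so every value below is a single pooled value with no replicate error, and nothing could be tested across samples. The fold of a peak is the number of ChIP fragments over its summit divided by the local background, with 1 added to each. Fragments and background were solved from the deposited fold and p-value, and the intervals given with a fold are 95% Poisson intervals of the fragment number, which cover counting error only. The FLK1 label could not be checked on expression, since these 4 libraries measured binding only. Kdr, the gene of FLK1, had 10 peaks by the same rule and Tal1 itself had 4.

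Wnt proteins are secreted lipid-modified ligands. In the canonical branch a Wnt binds a Frizzled and LRP5 or LRP6, which spares beta-catenin from degradation and lets it act with TCF and LEF factors on target genes. In non-canonical branches, typified by WNT5A and WNT11, ligands act through Frizzled, ROR and RYK on cell shape, polarity and migration. DKK1 blocks the LRP co-receptors and SFRP1 binds Wnt ligands directly. In the early embryo Wnt signals are needed for mesoderm to form and take part in its choice between cardiac, blood and endothelial fates. SCL is required for blood formation and reaches DNA in a complex that can hold an E protein, LMO2, LDB1 and a GATA factor, so its sites often carry a GATA motif, an E-box, or both at a set spacing.

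The DNA under the strongest summits that held a GATA motif is shown first, because the other motifs in it differed from gene to gene. Each line gives the 101 bp around a summit in mm9, plus strand, with the summit at base 51. Capitals mark a GATA motif (A or T, then GATA, then A or G, on either strand), an E-box (CANNTG), or the CTG and GATA ends of a composite, in which CTG is followed by GATA after 7 to 9 bp.
Fzd10, chr5:129048280-129048380: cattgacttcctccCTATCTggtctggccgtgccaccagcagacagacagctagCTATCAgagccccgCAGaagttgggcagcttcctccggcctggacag
Sfrp1, chr8:24498142-24498242: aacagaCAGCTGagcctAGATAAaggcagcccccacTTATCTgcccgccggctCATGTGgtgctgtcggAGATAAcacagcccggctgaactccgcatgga
Ryk, chr9:102792563-102792663: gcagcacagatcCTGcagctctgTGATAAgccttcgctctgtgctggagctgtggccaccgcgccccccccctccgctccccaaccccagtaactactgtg
Wnt5a, chr14:29231699-29231799: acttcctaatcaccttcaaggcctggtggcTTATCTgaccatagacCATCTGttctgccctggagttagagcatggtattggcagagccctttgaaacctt
Wnt2b, chr3:104800570-104800670: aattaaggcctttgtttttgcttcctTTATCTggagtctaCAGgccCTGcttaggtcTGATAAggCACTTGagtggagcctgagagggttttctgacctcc
Wnt4, chr4:136736236-136736336: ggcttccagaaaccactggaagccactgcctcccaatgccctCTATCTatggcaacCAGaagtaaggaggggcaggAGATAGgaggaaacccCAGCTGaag
Fzd7, chr1:59454482-59454582: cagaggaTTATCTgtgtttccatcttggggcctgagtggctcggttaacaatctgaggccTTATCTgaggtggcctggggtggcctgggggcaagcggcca
Ror1, chr4:99905263-99905363: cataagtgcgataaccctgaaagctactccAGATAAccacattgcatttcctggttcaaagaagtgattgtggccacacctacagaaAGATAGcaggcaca
In this set Fzd10, Ryk, Wnt2b and Wnt4 held the composite with a gap of 9 bp, and the Wnt2b window held it on each strand. The Sfrp1 window held 3 GATA motifs and 2 E-boxes with no composite, the Wnt5a window held a GATA motif and an E-box, and the Fzd7 and Ror1 windows held 2 GATA motifs each and no E-box.

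The next set is shown because it lacked what the first set shared. The summits beside Wnt3 were among the 6 strongest of the 33, and no GATA motif lay within 50 bp of them. The summit in a Wnt11 intron 0.888 kb from a start had no GATA motif and no E-box.
Wnt3, 6.08 kb upstream, chr11:103629330-103629430: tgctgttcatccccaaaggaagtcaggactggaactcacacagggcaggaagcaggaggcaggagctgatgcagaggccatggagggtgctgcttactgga
Wnt3, 0.687 kb upstream, chr11:103634727-103634827: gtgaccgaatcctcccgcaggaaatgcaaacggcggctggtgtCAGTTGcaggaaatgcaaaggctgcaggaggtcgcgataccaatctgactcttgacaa
Wnt11, 0.888 kb downstream, chr7:105988246-105988346: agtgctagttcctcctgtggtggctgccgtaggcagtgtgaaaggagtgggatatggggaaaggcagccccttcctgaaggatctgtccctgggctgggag

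Of the 36 genes, 15 had at least 1 peak (41.7%, 95% Wilson interval 27.1 to 57.8), against 28.9% of the 22367 protein-coding genes. That share lies inside the interval, so no difference in how many genes were bound was detectable with 36 genes. Wnt5a had 6 peaks, Wnt11 had 5 and Sfrp1 had 4. These 3 were the genes of the 36 with 3 or more peaks, and 6.54% of all protein-coding genes reached that number. Wnt2, Wnt2b, Wnt3, Wnt4, Fzd7 and Ror1 had 2 peaks each, and Wnt3a, Fzd1, Fzd5, Fzd10, Lrp5 and Ryk had 1 each. By role, 7 of 19 ligands, 4 of 10 Frizzled receptors, 1 of 2 LRP co-receptors, 2 of 3 ROR and RYK receptors and 1 of 2 secreted inhibitors had a peak. The ligands held 20 of the 33 peaks.

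Most of the 33 peaks were of ordinary height and a few stood far above them. Their median fold was 11.9 (95% interval of the median 8.55 to 18.8), beside 11.1 for all peaks. The median number of fragments over the summit was 61, beside 53 for all peaks, and ran from 26 to 888. A fold of 100 or more was reached by 2 of the 33 (6.06%, Wilson interval 1.68 to 19.6) and by 1.67% of all peaks, while 5 of the 33 (15.2%) were at or above the upper quartile of the list. The strongest peaks of Fzd10, Sfrp1 and Ryk together held 48.4% of the 3647 fragments stacked over the 33 summits. The local background had a median of 3.71 fragments and a highest value of 7.86, beside a median of 3.67 and an upper quartile of 4.84 for all peaks.

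**Figure D1:**
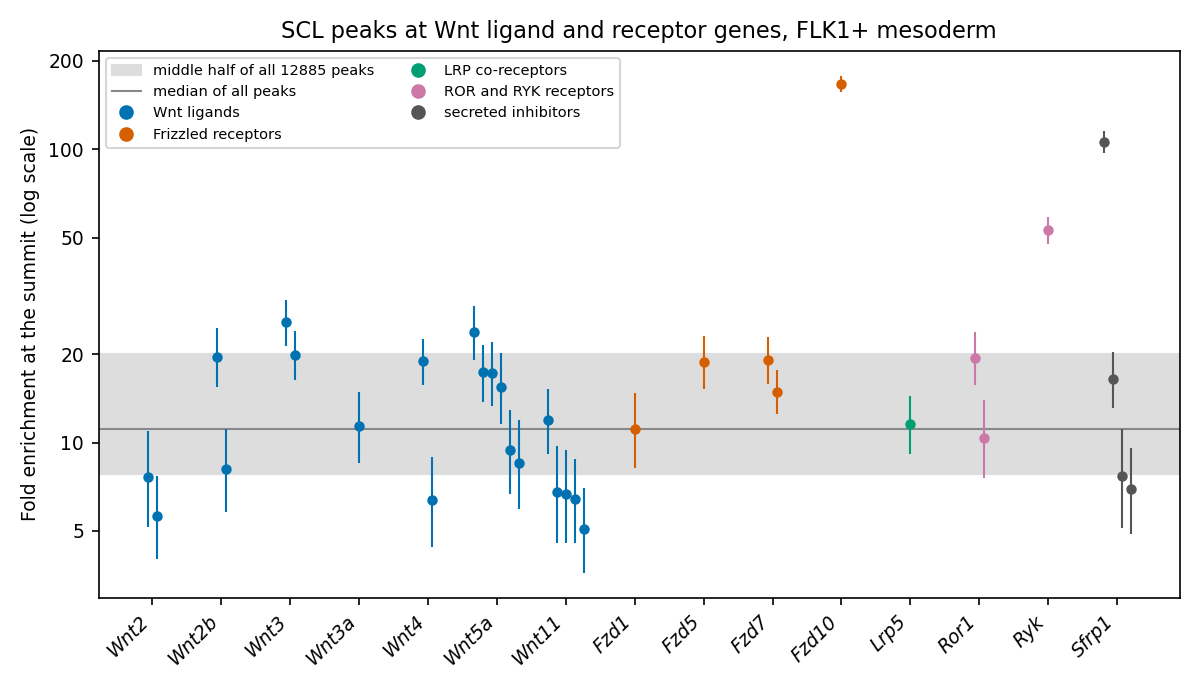
Fold enrichment (log axis) of each of the 33 peaks, by gene and coloured by role, with 95% Poisson intervals of the ChIP fragment number; the grey band spans the quartiles of all 12885 peaks and the line marks their median. The Fzd10 peak, the strongest Sfrp1 peak and the Ryk peak stand above the rest, and the Wnt11 peaks lie under the median of all peaks except for 1 at 11.9.

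Among the ligands, the peak of highest fold was at Wnt3, which the embryo needs to form mesoderm, and its interval overlapped that of the tallest Wnt5a peak. The summit 6.08 kb upstream of its start (chr11:103629244-103629545, intergenic) had 120 fragments and a fold of 25.7 (21.3 to 30.7). The summit 0.687 kb upstream (chr11:103634603-103634914, intergenic) had 105 fragments and a fold of 19.9 (16.3 to 24.0). Both were taller than the median peak of the list, and their intervals overlap each other. A further summit lay in an intron of Wnt3 itself (chr11:103675779-103676647), with 184 fragments and a fold of 39.0, but its nearest coding start was that of Nsf, 9.09 kb away, so it is not among the 33. It held the composite motif that the upstream pair lacked.

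Wnt5a, the prototype non-canonical ligand, had the most peaks, and all 6 lay upstream in introns of Erc2, which encodes a presynaptic scaffold protein. From the farthest to the nearest, they lay 194, 178, 118, 86.2, 68.9 and 50.4 kb from the start. Their folds in that order were 15.4, 17.4, 9.40, 23.8, 17.2 and 8.55. The tallest (chr14:29231557-29232272) had 89 fragments and an interval of 19.1 to 29.2, clear of the intervals of the peaks at 118 kb (6.66 to 12.9) and 50.4 kb (5.93 to 11.96) and overlapping those of the other three. The others were at chr14:29123727-29124069, chr14:29140163-29140521, chr14:29199998-29200381, chr14:29248874-29249264 and chr14:29267389-29267637, with 52, 80, 36, 63 and 32 fragments. The composite was present at 178, 118 and 68.9 kb. The count rests on distant summits: within 100 kb of a start Wnt5a had 3 peaks and Wnt11 had 5, and in the gene or 10 kb around it Wnt5a had 0 and Ror1 had 4. No other coding start was close: Erc2 and Lrtm1, the next nearest, were 434.6 to 563.9 kb from these summits.

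Wnt11, a non-canonical ligand with roles in heart and gastrulation movements, had 5 peaks spread on both sides of its starts, 4 of them of low fold. The summit 35.2 kb upstream (chr7:105948130-105948821, intergenic) had 36 fragments and a fold of 5.08 (3.60 to 6.98), the lowest of the 33. The summits 0.888 kb and 5.04 kb downstream (chr7:105988188-105988427 and chr7:105992298-105992581) were in introns of Wnt11, with 29 and 36 fragments and folds of 6.66 (4.53 to 9.46) and 6.41 (4.54 to 8.81). The summit at 44.6 kb (chr7:106031603-106032169, intergenic) had 27 fragments and a fold of 6.76 (4.54 to 9.73). The intervals of these 4 overlap, so no order among them was detectable. The summit at 56.1 kb (chr7:106043355-106043630), in an intron of Uvrag, an autophagy gene, had 61 fragments and a fold of 11.9 (9.18 to 15.3). The composite was present at the 44.6 and 56.1 kb summits and absent from those in the Wnt11 gene.

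Wnt2b and Wnt4 each had a tall summit with a low one close by. At Wnt2b, a canonical ligand close in sequence to Wnt2, the summit 35.99 kb upstream (chr3:104800459-104800914, intergenic) had 75 fragments and a fold of 19.6 (15.5 to 24.6), and a summit 1189 bp from it had 37 fragments and a fold of 8.14 (5.80 to 11.1). Both held the composite. At Wnt4, a ligand known for its part in kidney and female reproductive tract development, the summit 97.1 kb upstream (chr4:136736030-136736499, intergenic) had 117 fragments and a fold of 18.9 (15.7 to 22.6), and a summit 878 bp away had 32 fragments, a fold of 6.37 (4.42 to 8.91), and no GATA motif, E-box or composite.

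The remaining ligand peaks were those of Wnt2 and Wnt3a. Wnt2, which takes part in heart, lung and vascular development, had a summit in its 5′ untranslated exon, 0.026 kb from an internal start, with 28 fragments and a fold of 7.66 (5.18 to 10.9). A GATA motif lay beside that summit, shown in capitals in the bases that follow, chr6:17980437-17980460: ggtgagactcacTGATAAagtttc. The other Wnt2 summit, 12.1 kb upstream, had 37 fragments and a fold of 5.62 (3.999 to 7.69). Wnt3a, the canonical ligand of the later primitive streak, had 1 summit in its own intron, 29.5 kb from the start, with 52 fragments and a fold of 11.4 (8.53 to 14.8). The start of Arf1 was nearly as close to it, at 33.0 kb.

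The 5 summits of the Frizzled receptors each held a GATA motif (Wilson interval 56.6 to 100%), which cannot be told from the 73.2% of all peaks. The Fzd10 peak (chr5:129047769-129048721, intergenic, 58.4 kb upstream) was the tallest and, at 953 bp, the widest of the 33. It had 888 fragments over a background of 4.33 and a fold of 167 (156 to 178), rank 47 of all 12885 peaks, and no peak summit lay closer to it than 78154 bp. Fzd7, a receptor active in gastrulation, had summits 84.5 kb upstream (chr1:59454404-59454678, intergenic) and 87.9 kb upstream, 3406 bp apart. They had 113 and 131 fragments and folds of 19.1 (15.8 to 23.0) and 14.9 (12.5 to 17.7), which overlap. The peak at 87.9 kb had the higher stack and the lower fold, as its background of 7.86 was above the 4.96 of its neighbour. Fzd5, a receptor for WNT5A among others, had 1 peak of 95 fragments in its 3′ untranslated exon, 4.09 kb from the start, with a fold of 18.8 (15.3 to 23.0). Fzd1 had 1 peak of 45 fragments and a fold of 11.1 (8.16 to 14.8) at a distance of 259 kb, the farthest of the 33, and the next coding start, of Gm9897, was 307 kb from it.

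Of the other receptors, Ryk had the strongest peak. RYK is a receptor without active kinase that binds Wnt ligands. Its peak (chr9:102792444-102792905) lay in its own intron, 55.4 kb from the start, with 329 fragments and a fold of 52.9 (47.3 to 58.9). Ror1, a receptor kinase for WNT5A, had 2 summits in its introns, 8950 bp apart. The one at 137 kb (chr4:99905065-99905519) had 90 fragments and a fold of 19.5 (15.7 to 23.9), and the one at 128 kb had 42 fragments and a fold of 10.4 (7.55 to 13.9). A further pair of summits in Ror1 introns, at folds of 28.2 and 11.1, both with the composite, lay nearer to the start of Ube2u and so outside the 33. Lrp5 had 1 intronic peak, 40.5 kb from its start, with 77 fragments and a fold of 11.5 (9.13 to 14.4). It held an E-box of the form CAGCTG and no GATA motif.

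At Sfrp1, 3 of the 4 peaks formed a cluster upstream of the gene. The tallest (chr8:24498035-24498421, intergenic, 23.8 kb upstream) had 549 fragments and a fold of 106 (97.3 to 115), rank 179 of all peaks. Summits lay 571 bp from it on the near side, with 83 fragments and a fold of 16.4 (13.1 to 20.3), and 1016 bp from it on the far side, with 35 fragments and a fold of 6.95 (4.90 to 9.59). These peaks were at chr8:24498536-24499087 and chr8:24496993-24497448. The fourth peak (chr8:24626574-24626859, intergenic, 105 kb downstream) had 26 fragments and a fold of 7.71 (5.14 to 11.2). The composite was present in the 16.4-fold peak alone of the 4.

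The other 21 genes had no peak by the nearest-start rule, and 0 of them had a summit within 10 kb of a start. For 11 of the 21 a summit lay within 100 kb, with a median gap to the closest summit of 94.4 kb over the 21 genes. The 21 were picked out as nearest to no summit, which in itself favours long gaps. The same values for all coding genes, or for those without a peak, were not computed, so these gaps cannot be called unusual. The list holds called peaks only, so it gives no level for these genes. Several of them are neighbours of another Wnt gene. The summit nearest to Wnt9b was the Wnt3 peak of 25.7-fold, 18.2 kb away, and the summit nearest to Wnt9a was the Wnt3a peak, 45.6 kb away. Wnt6 and Wnt10a shared a nearest summit at 114 and 94.4 kb, and Wnt1 and Wnt10b shared one at 549.8 and 563 kb. For Wnt7b the nearest summit, 35.2 kb from its start, lay in its own intron with a fold of 19.9, but nearer to the start of Gm4825. The distances were 71.6 kb for Wnt5b, 61.8 kb for Wnt7a, 26.0 kb for Wnt8a, 48.7 kb for Wnt8b and 114 kb for Wnt16. Among the Frizzled receptors they were 39.6 kb for Fzd2, 54.3 kb for Fzd3, 36.6 kb for Fzd4, 119 kb for Fzd6, 103 kb for Fzd8 and 132 kb for Fzd9. They were 149.6 kb for Lrp6, 187 kb for Ror2 and 178 kb for Dkk1.

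The summits lay far from the starts. Their median distance was 50.4 kb (29.5 to 86.2), beside 24.1 kb for all peaks, which lies below the interval. Distances over 50 kb were found for 17 of the 33 (51.5%, Wilson interval 35.2 to 67.5) and for 32.5% of all peaks. Those 17 included all 6 summits of Wnt5a, and the median without that gene was not computed. With summits over 100 kb left out, the median of the members was 35.6 kb, and that of all peaks was not computed. Distances of 1 to 10 kb were found for 3 (9.09%, 3.14 to 23.6), against 23.8% of all peaks. Within 1 kb there were 3 summits (9.09%), those of Wnt2, Wnt3 and Wnt11 described above, against 7.59% of all peaks. Upstream summits numbered 21 (63.6%, 46.6 to 77.8), against 48.9%. By annotation 17 summits were intergenic, 14 intronic and 2 in untranslated exons, and 51.4% and 44.6% of all peaks were intergenic and intronic. The intervals treat peaks as independent, although 19 of the 33 (57.6%) had another of the 33 within 15 kb. For all peaks, 37.7% had any other peak within that distance. Among the peaks of at least 10-fold the share of the members was 38.1%, with a −log10 q minimum of 50 it was 37.5%, and the share of all peaks at those thresholds was not computed.

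**Figure D2:**
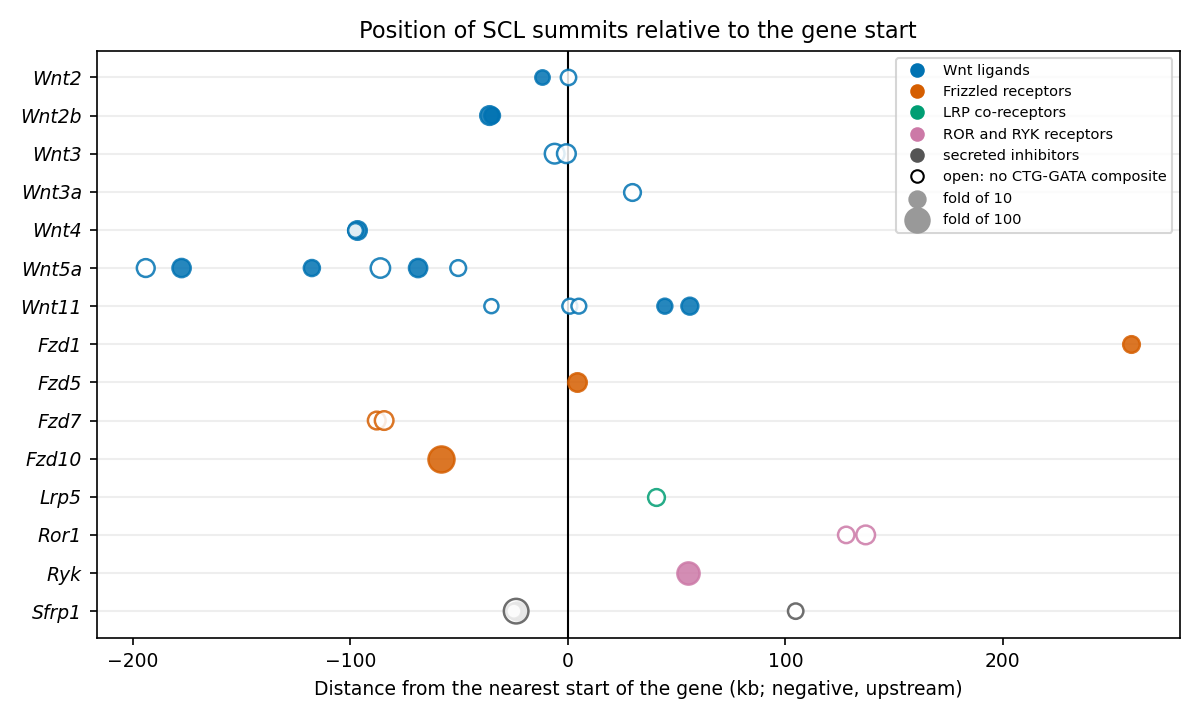
Distance in kb from each summit to the nearest start of its gene, negative upstream in the direction of transcription; point size grows with fold, colour gives the role, and filled points hold the CTG and GATA composite within 50 bp of the summit. The 6 Wnt5a summits are spread over the region upstream of the gene, and the Wnt2b, Wnt4, Fzd7 and upstream Sfrp1 summits lie in tight groups.

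A gene with few neighbours can gather more peaks under a nearest-start rule, so each gene was set beside the length of genome closer to its starts than to any other coding start. That length had a median of 99.2 kb for the 36 genes, 139 kb for those with a peak, 56.4 kb for those without, and 45.6 kb for all coding genes. Wnt5a had the longest of the 36, 574 kb. Below 50 kb, 2 of 10 genes had a peak, against 13.9% of coding genes of that length. From 50 to 150 kb it was 7 of 15 (46.7%, against 35.4%), and at 150 kb or more 6 of 11 (54.5%, against 62.8%). Wnt3 had 2 peaks in 37.1 kb, whereas Dkk1 and Fzd8 had none in 425 and 294 kb. The distance of a summit is bounded by the same length, and the part of that length in the longer distances was not tested.

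**Figure D3:**
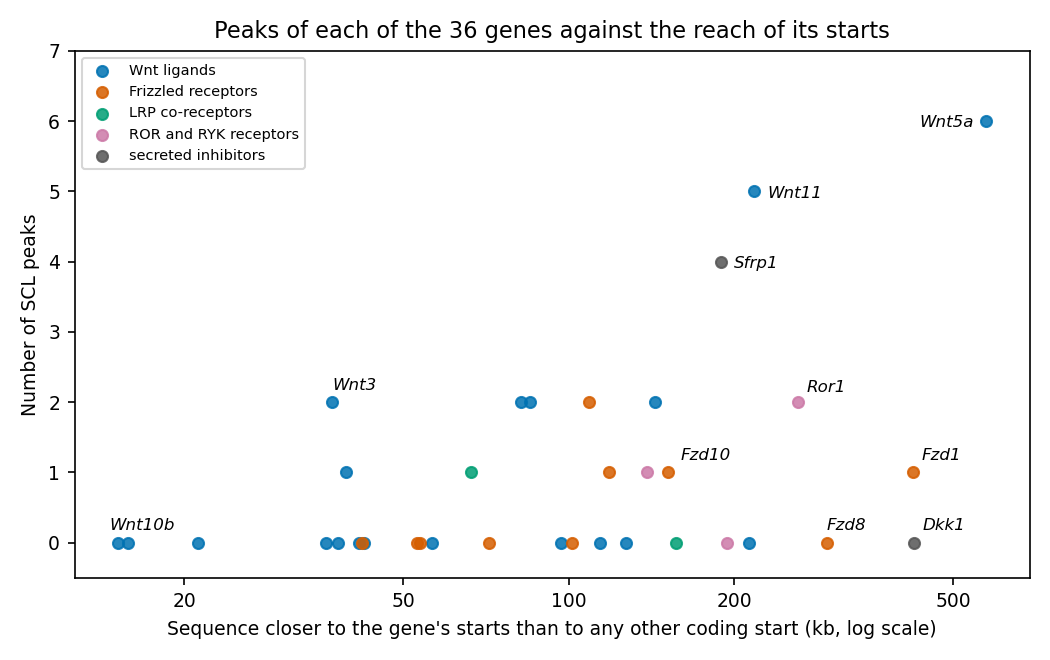
Number of SCL peaks of each of the 36 genes against the length of genome, in kb on a log axis, closer to its starts than to any other coding start; colour gives the role. Wnt5a, with 574 kb, has the most peaks, while Dkk1 with 425 kb has none and Wnt3 with 37.1 kb has 2.

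For 7 of the 33 summits the second nearest coding gene was under 1.5 times as far as the nearest. These were the summits of Fzd1, Fzd7, Wnt3a and Wnt4 and the downstream summit of Sfrp1. For 13 of the 33 it was under 2 times as far. The shares of all peaks were not computed. When long intergenic and processed-transcript RNA genes were allowed to compete, the Fzd10 peak went to 5930412G12Rik, 42.9 kb away, both Wnt4 peaks went to Gm13003 and both Ror1 peaks went to Gm12701, which left 28 peaks and 12 genes. When only starts of transcripts typed as protein-coding were used, 39 peaks and the same number of genes, 15, were counted. That choice gave Wnt2 another 3 peaks, of up to 37.3-fold, that otherwise lay nearest to St7, gave Wnt3 another 2 from Nsf, and gave Fzd7 another 1 from Cdk15.

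GATA motifs were concentrated under the summits. A GATA motif lay within 50 bp of 22 of the 33 summits (66.7%, Wilson interval 49.6 to 80.2), against 18.2% of the 66 windows of equal length 1 kb to either side. For all peaks the shares were 73.2% and 17.8%. An E-box was found at 15 summits (45.5%, 29.8 to 62.0), close to the 39.4% of the flanking windows, and at 52.6% and 42.4% of summit and flanking windows of all peaks. With 100 bp on each side of the summit, the E-box share of the 33 was 75.8%, as more sequence was searched. The composite was found at 14 summits (42.4%, 27.2 to 59.2) and in 6.06% of the flanking windows, against 32.9% and 3.07% for all peaks. Around the midpoint of the peak in place of its summit, the composite share of the 33 was 18.2%. The shares of all peaks in the wider windows and around the midpoint were not computed. Within 50 bp of the summit, all 3 intervals hold the share of all peaks, so no difference from the rest of the list was detectable with 33 peaks. The composite contains a GATA, and its CTG can be part of an E-box, so the shares are not independent.

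**Figure D4:**
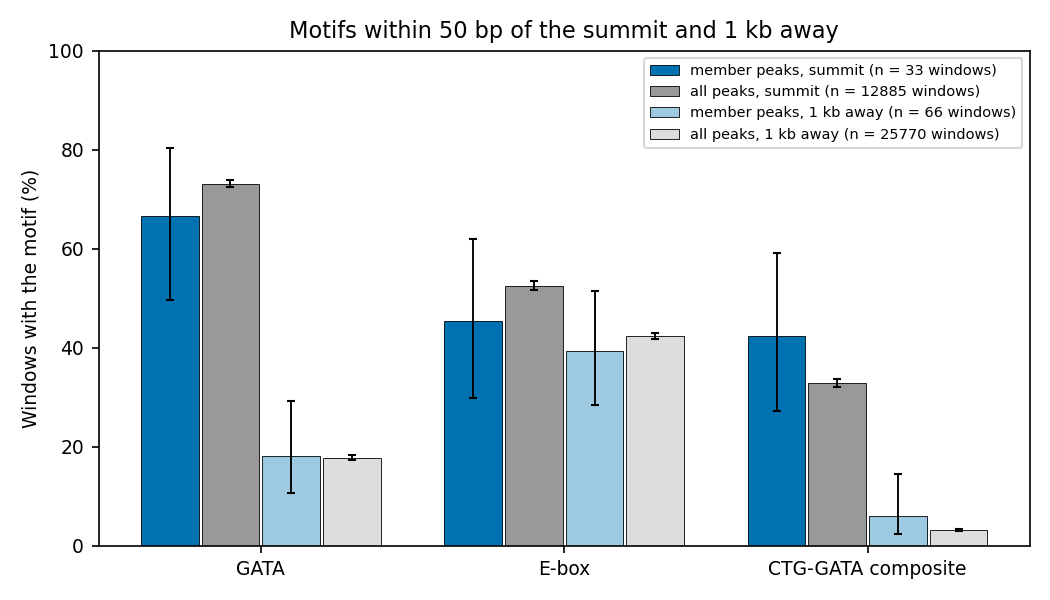
Percent of 101 bp windows with a GATA motif, an E-box or the CTG and GATA composite, at the summit and 1 kb away, for the 33 peaks and for all 12885; bars start at 0 and lines are 95% Wilson intervals. GATA motifs and composites are more frequent at summits than 1 kb away, E-boxes little more so.

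The spacing of the composite was 9 bp at 12 of the 14 summits that held it and 8 bp at 2, those of Fzd5 and of the Wnt5a peak at 68.9 kb. A gap of 9 bp was present in 55.7% of all 4234 composite peaks, 8 bp in 37.4% and 7 bp in 11.0%, where a peak can have more than 1. The median fold was 16.8 for the 14 composite peaks (range 5.62 to 167) and 7.33 for the 6 with no GATA motif and no E-box (6.37 to 25.7). In the whole list these medians were 13.3 and 8.67. The 3 peaks with a GATA motif and an E-box but no composite had a median of 23.8, against 11.5 in the whole list, the 7 with a GATA motif alone 10.4, against 10.7, and the 3 with an E-box alone 11.5, against 9.31. The core of an ETS site (AGGAA, either strand) was found at 20 summits (60.6%, 43.7 to 75.3) and at 51.9% of all summits. Sites of TCF and LEF factors, through which canonical Wnt signals act, were searched as CTTTGAT or CTTTGTT on either strand, and in no other form. In that form a site was found at 1 of 33 summits (3.03%), the tall Wnt2b summit shown above, and at 4.62% of all summits.

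The rest of the Wnt pathway was read from a list of 61 genes, chosen with earlier results of these data known. Its shares therefore describe this list only and do not show a preference of SCL for these genes. Of these, 43 had a peak (70.5%, Wilson interval 58.1 to 80.4), beside the 28.9% of all protein-coding genes and the 41.7% of the ligands and receptors. Their 85 peaks had a median fold of 11.9 and a median distance of 22.3 kb. The 61 genes had a median of 95.8 kb closest to their starts, similar to the 99.2 kb of the ligands and receptors. That median was 45.6 kb for all coding genes. The lengths of the 61 ran from 6.50 to 1067.5 kb, and their share was not split by length. Coding genes had a peak in 13.9% below 50 kb, in 35.4% from 50 to 150 kb and in 62.8% at 150 kb or more. The part of length in the share of the 61 was not tested. With a −log10 q of at least 50, 22 of the 61 genes and 11 of the 36 had a peak. The share of all coding genes at that threshold was not computed. Nuclear factors had a peak in 11 of 13 genes, planar polarity genes in 6 of 8, R-spondins with their receptors and ligases in 7 of 9, and membrane inhibitors and co-receptors in 5 of 6. Other secreted inhibitors had one in 7 of 11, and both genes of Wnt secretion had one. Cytoplasmic components had one in 5 of 12, with no peak at Dvl1, Dvl2, Dvl3, Axin1, Ctnnbip1, Nkd1 or Nkd2. The most peaks were at Prickle1, a planar polarity gene, with 8 and a strongest fold of 69.0. Tle4, a co-repressor that binds TCF factors, had 6 (46.1-fold), Rspo3, a secreted enhancer of Wnt signals, had 6 (39.0-fold), Tcf7l2, a TCF factor, had 5 (26.2-fold), and Ctnnb1, which encodes beta-catenin, had 4 (30.9-fold). Vangl1, another planar polarity gene, also had 4 (24.99-fold).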

How the data were processed

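The deposited file was a list of peaks called with MACS2 2.0.10, per the labels, on reads aligned to mm9 with Bowtie 1.1.2. The authors used paired-end reads without duplicates, pooled the SCL libraries and the inputs, and set the list by the irreproducible discovery rate. Its fold is a ratio to local background by the authors, and its −log10 p and −log10 q values were deposited beside it, as was a score that was not used. Reads per library and values per library were not analysed here.

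Summits were assigned to the nearest start of any transcript of 22367 protein-coding genes (GENCODE vM1). ChIP fragments and background were solved from the fold and the Poisson p-value, to within 0.001 for 99.9% of peaks. Windows of 101 bp were read from the NCBIM37 (mm9) genome. Intervals of shares are Wilson intervals at 95% and those of medians are from order statistics. All values are descriptions and no test was made. The scripts were tested on simulated peaks and used Python 3.11.15, numpy 2.4.6, pandas 2.3.3 and scipy 1.17.1.

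The genes named with position and sequence were those with 3 or more peaks, the 10 peaks of highest fold and the peaks within 1 kb of a start. For the other pathway genes, the 5 with the most peaks were named, with ties ordered by highest fold. Vangl1, tied with the fifth by number of peaks, was added after its values were seen. The members and lists were chosen with earlier results of these data known. Alternatives were peak thresholds, the set of starts, a limit of 100 kb, the peak midpoint, a gene body with 10 kb, merging of summits within 500 bp, and wider windows.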

Additional observations from a re-analysis of the deposited data

How the results depend on the processing

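Of 71 alternative values of the summary results, 56 stayed within 1.5 times the reported count or within the reported interval, and 15 moved. With peaks of at least 10-fold alone, 21 peaks were left, 81.0% held a GATA motif and 38.1% had another within 15 kb. With a −log10 q of at least 50, 16 peaks were left, of median fold 19.3, with a GATA motif in 81.2% and an E-box in 62.5%, 37.5% had another within 15 kb, and 22 other pathway genes had a peak. The smaller counts follow from the threshold, and the cause of the higher motif shares was not tested. With the midpoint of the peak in place of its summit, the composite share fell to 18.2%, and the cause was not tested. Counting summits in a gene or within 10 kb of it gave 15 peaks in 9 genes: 11 were among the 33, and the others were the intronic summits of Wnt3, Wnt7b and Ror1 that lay nearer to another start. With 100 bp on each side of the summit, 87.9% held a GATA motif and 75.8% an E-box, as more sequence was searched. With 50 kb in place of 15 kb, 78.8% had another of the 33 close by. Of 120 alternative counts for single genes, 32 moved. No paired analysis was possible because the deposited list holds no value for a single library, and for the same reason no library could be left out. The list shows called peaks only, so a gene without one may hold weaker binding.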
